A study of Mus musculus with 4 samples.

Results

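The genes described here encode enzymes that break down threonine, glycine, lysine and pyrimidines. They were chosen by name: Tdh, Gcat, Gldc, Amt, Gcsh, Dld, Aass and Dpys, taken as every probe set that the array annotation gives to one of them alone. Of these 8 genes, 5 had such a probe set, namely Gldc, Gcsh, Dld, Aass and Dpys, with 8 probe sets between them, out of 18193 genes measured. Tdh, Amt and Gcat had no such probe set and were not analysed here. Another 3 probe sets name a gene of this list together with another gene, and were left out. The choice rested partly on these data, since Aass led the ES array, so the levels below are descriptions and carry no test.

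RNA of 4 kinds of mouse cell was hybridised to 1 Affymetrix array each. The ES array holds undifferentiated embryonic stem (ES) cells of an HB9 reporter line, grown with leukemia inhibitory factor on feeder fibroblasts of mouse embryos that had been treated with mitomycin. The array labelled HB9-GFP+ holds cells of that line sorted on day 8 for green fluorescent protein driven by HB9, the homeodomain factor of motor neurons encoded by Mnx1; their treatment was retinoic acid at 0.1 uM, purmorphamine at 0.2 uM and Sonic hedgehog, between days 5 and 9 by the labels, which runs past the day of the sort. The other two hold sorted Sox1 neural stem cells, whose derivation the labels do not give, and cerebellar granule cells of postnatal day 6. Strain, sex and the number of animals or cultures are not stated, and 1 array per kind of cell leaves no replicate error and no test.

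Signals are linear intensities, scaled by the authors to a common trimmed mean. A gene was called detected at a signal of 157.5, which is 1 log2 unit above the low level of 78.8, and called higher or lower where the difference reached 4-fold (2 log2 units) and its brighter signal was a detected one. Values under the low level were set to it, so a fold against such an array is a lower bound. Where the dimmer signal lay between the 2 levels, the signals are given without a fold. In whole-sample RNA, fewer cells of a type and less RNA per cell cannot be told apart.

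The arrays were checked against their labels by marker genes. Between 9330 and 9518 genes were detected per array. On the array labelled HB9-GFP+, all 24 pluripotency markers were detected, as on the ES array. Of 12 motor neuron markers 2 were detected, the same count as on the ES array, and Mnx1 stood at 15.9. These 2 were Lmo4 (382.4, against 175.2 on ES) and Olig2 (320.6, against 0.9 on ES). Most of these values therefore go against that label, and the sample is named by its label alone, as the HB9-labelled array. Fibroblast markers also set it apart, with 17 of 19 detected and a summed signal of 37452.5, against 7 of 19 and 6053 on the ES array. Neural stem cell markers were detected for 12 of 12 genes on the Sox1 array. Of the 24 pluripotency markers 13 were detected there too, with a summed signal of 37798.1, against 163600 on the ES array and 5778.4 on granule. Sox2 (16172.6), Sall4 (6334.6) and Lin28a (6055.7) were the brightest of them on the Sox1 array, and Pou5f1 was at 514.3. What this means for the members was not tested. Granule neuron markers were detected for 11 of 12 genes on the granule array, where all 14 markers of astrocytes and Bergmann glia were detected too. The ratio of 3' to 5' signal of the actin control was 4.55 on the ES, 2.77 on the HB9-GFP+, 5.08 on the Sox1 and 2.29 on the granule array, and that of the Gapdh control was 1.99, 1.37, 3.68 and 2.70.

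Mouse ES cells are known for their use of threonine, which the mitochondrial enzymes Tdh and Gcat split into glycine and acetyl-CoA. Glycine is then taken apart by the glycine cleavage system, in which the P-protein Gldc removes the carboxyl group, the lipoate-bearing H-protein Gcsh carries the remaining aminomethyl group, the T-protein Amt passes its carbon to folate, and the L-protein Dld reoxidises the lipoate. Aass carries out the first steps of lysine breakdown in mitochondria, and Dpys, dihydropyrimidinase, opens the ring of reduced uracil and thymine.

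The sequence upstream of a gene shows whether genes with like profiles share simple promoter letters. RefSeq windows on GRCm38.p6, from 250 bases before to 30 bases after the start, were at hand for 4 of the 5 measured genes. Those of Aass, the gene that differed most, and of Gldc and Gcsh, the pair with the closest profiles, are given 5′ to 3′ on the gene's strand, the last 2 having been chosen after their values were seen. They lie at chr6:23132957-23133236 for Aass, chr19:30175412-30175691 for Gldc and chr8:116993469-116993748 for Gcsh, all on the minus strand. Capitals mark matches to the motifs searched.
Aass: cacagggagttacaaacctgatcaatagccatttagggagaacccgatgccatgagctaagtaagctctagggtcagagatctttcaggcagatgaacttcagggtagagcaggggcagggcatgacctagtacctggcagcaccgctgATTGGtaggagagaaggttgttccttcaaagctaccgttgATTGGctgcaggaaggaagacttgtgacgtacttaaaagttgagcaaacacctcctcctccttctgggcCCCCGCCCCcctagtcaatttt
Gldc: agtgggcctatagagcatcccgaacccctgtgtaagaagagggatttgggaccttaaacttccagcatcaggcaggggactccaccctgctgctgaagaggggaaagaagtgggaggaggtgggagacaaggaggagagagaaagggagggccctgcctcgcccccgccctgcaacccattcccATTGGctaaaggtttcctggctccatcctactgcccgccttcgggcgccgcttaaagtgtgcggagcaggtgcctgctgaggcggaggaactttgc
Gcsh: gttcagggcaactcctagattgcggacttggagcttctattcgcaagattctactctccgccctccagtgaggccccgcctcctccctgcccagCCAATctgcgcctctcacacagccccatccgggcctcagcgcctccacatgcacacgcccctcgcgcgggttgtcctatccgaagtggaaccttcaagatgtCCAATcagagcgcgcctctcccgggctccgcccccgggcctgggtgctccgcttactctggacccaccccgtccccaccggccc

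All 3 windows held CCAAT, the letters of the CCAAT box, on one strand or the other. Aass had it at positions -101 and -61 from the start, Gldc at -66 and Gcsh at -156 and -54, and 36.1% of all 32851 promoter windows of the same length held it. Aass also held CCCCGCCCC, the GC box of Sp and Klf factors, at position 9, a match that 11.2% of windows had. ATGCAAAT (the octamer of POU factors, in 1.69% of windows), AAGGTCA (bound by Esrrb and related receptors, 4.46%), ACAAAG (Sox factors, 17.9%), CACGTG (the E box of Myc, 6.79%) and TATAAA (13.1%) were not among the letters of these 3 windows on either strand. The windows differed in base composition, with 51.1% G and C and 5 CpG in Aass, 60.0% and 9 in Gldc, and 65.7% and 20 in Gcsh, against medians of 52.5% and 6 over all windows. The window of the remaining measured gene, Dld, is not printed. It also held CCAAT, at -78 and 4, so these letters were not particular to the 3 genes above. It held ACAAAG at -61 as well.

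Gldc and Gcsh, the P- and H-proteins of the glycine cleavage system, were bright on the ES, HB9-GFP+ and Sox1 arrays and dimmest on the granule array. Gldc (probe set 1416049_at) had a signal of 3481.7 on the ES array, 3836.4 on the HB9-labelled array, 2359.2 on the Sox1 array and 659 on granule. It was thus detected on all 4 arrays, and the granule array alone was well below the rest. The fold over the granule array was 5.28 for ES and 5.82 for the HB9-labelled array, both called higher, and 3.58 for Sox1, which falls short of 4-fold. The markers of astrocytes and Bergmann glia, cells in which Gldc is known to be abundant, had a summed signal of 63797.9 on the granule array. It was 22968.8 on the ES array, and the median signals of these markers were 2644.2 and 121. What such cells add to the Gldc signal was not tested.

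Gcsh (probe set 1432164_a_at) was at 14395.5 on the ES array, 15162.7 on the HB9-labelled array, 12354.4 on the Sox1 array and 5897 on granule. It had the same order of arrays as Gldc but a narrower range, with the granule array lower by 2.44-fold against ES, 2.57-fold against HB9-GFP+ and 2.10-fold against Sox1, none of which is a call. With arrays centred on reference genes these differences were 0.71, 0.41 and 0.18 log2 units, against 1.29, 1.36 and 1.07 in the deposited scaling. That centring moved the median of all detected genes to -0.54, -0.94 and -0.87, so relative to it Gcsh was at 1.26, 1.35 and 1.05.

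Differences among the 3 brighter arrays were small for both genes. For scale, the SD of a gene's log2 difference among its own detected probe sets, pooled over genes, was 0.46 to 0.67 in the 6 comparisons. This spread is one among probe sets within a pair of arrays. It holds no variation between repeated arrays, cultures or animals, so it is not a replicate error and passing it is not a test. Between the ES array and the HB9-labelled array, Gldc differed by 0.14 and Gcsh by 0.07 log2 units, both under that comparison's 0.49 and both with the sign turned when arrays were centred on reference genes (-0.24 and -0.30), and for Gcsh also with quantile normalization (-0.01). Against Sox1, ES was higher by 0.56 for Gldc, above the spread of 0.46, and by 0.22 for Gcsh, below it. The HB9-labelled array was higher than Sox1 by 0.70 for Gldc, above that comparison's spread of 0.60, and by 0.30 for Gcsh, below it.

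Dld, the L-protein, ran the other way. Its brighter probe set (1423159_at) was at 988.6 on the ES array, 1213.8 on the HB9-labelled array, 1537.1 on the Sox1 array and 1591.1 on granule, and its other one (1433263_at) was undetected on all 4, between 11.2 and 49.4. Dld also serves the pyruvate, 2-oxoglutarate and branched-chain dehydrogenase complexes, so its level is not specific to glycine. The ES array was 1.55-fold below Sox1 and 1.61-fold below granule, far from a call, and the Sox1 and granule arrays differed by 0.05 log2 units. With reference gene centring Sox1 minus granule was -0.94 log2 units and ES minus granule -1.26. Near-equal signals on Sox1 and granule thus hold for the deposited scaling and quantile normalization. The centring moved the median of all detected genes to -0.87 and -0.54 in these comparisons, so relative to it Dld was at -0.07 and -0.72. With the mean over both probe sets, which is drawn down by the dark one, the difference between ES and Sox1 took the opposite sign (0.17) and that of Sox1 from granule was -0.75.

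**Figure D1:**
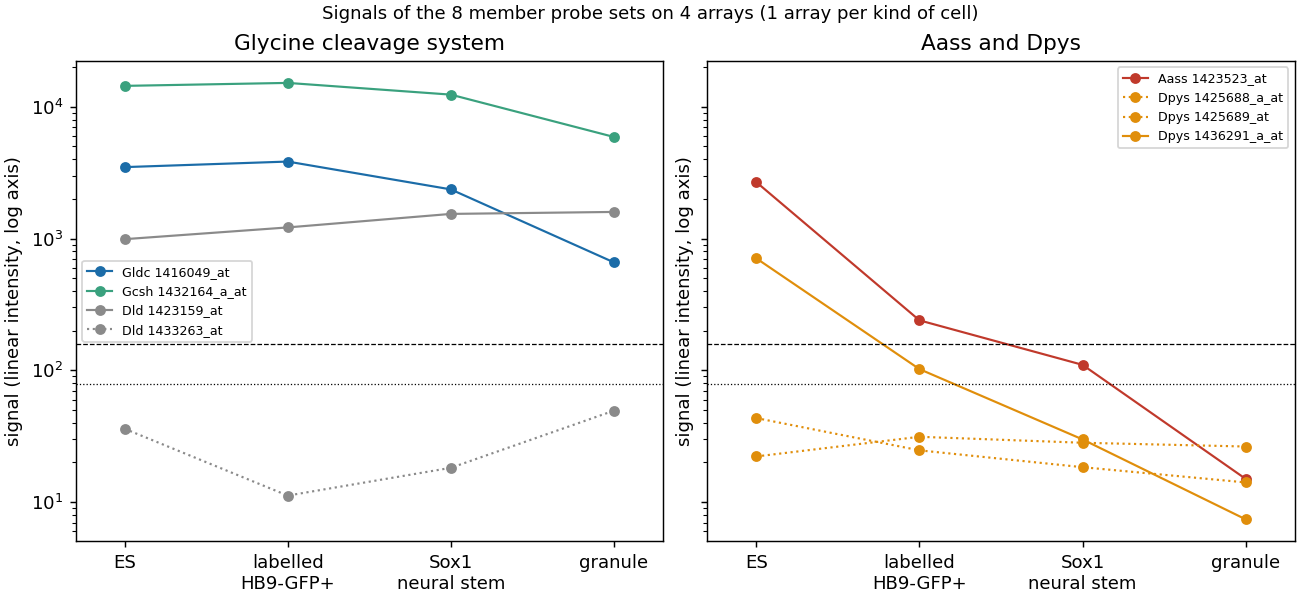
Signal of each of the 8 probe sets (linear intensity on a log axis) on the 4 arrays, 1 array per kind of cell; lines join the values of 1 probe set, dotted for those that do not represent their gene, and the dashed and dotted horizontal lines are the detection level of 157.5 and the low level of 78.8. Gldc and Gcsh drop on the granule array, Dld stays near 1000 to 1600, and Aass and Dpys are bright on the ES array.

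Aass, the enzyme of the first steps of lysine breakdown, was bright on the ES array and not on the other array with a pluripotency profile. Its only probe set (1423523_at) was at 2678.1 on the ES array, 239.4 on the HB9-labelled array, 110 on the Sox1 array and 15 on granule. It was detected on the first 2 of these, and the ES array was 11.2-fold above the HB9-labelled array and at least 34.0-fold above the granule array. The Sox1 signal lay between the low and the detection level. The HB9-labelled array was at least 3.04-fold above the granule array, which is not a call.

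Dpys showed the same order of arrays at lower signals. Its brightest probe set (1436291_a_at) was at 707 on the ES array, 102.1 on the HB9-labelled array, 29.9 on the Sox1 array and 7.4 on granule, so it was detected on the ES array alone and was at least 8.98-fold higher there than on the Sox1 and granule arrays. The other 2 probe sets were undetected on every array. One of them (1425688_a_at) had its highest value on the ES array as well, at 43.4 against 24.7 on the HB9-labelled array, 18.4 on Sox1 and 14.1 on granule, and the other (1425689_at) had its lowest there, at 22.2. The call for Dpys therefore rests on 1 probe set, and with the mean over its 3 probe sets the difference of ES from each of the other 3 arrays shrank to 0.16 log2 units.

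By the 4-fold rule against each of the other 3 arrays, 45 genes were set apart on the ES array, 0.478% of those detected on it. Aass and Dpys were both among them. Aass, whose smallest difference from another array was the largest of the 45 (3.48 log2 units), was chosen for this property, so its place is not a result, and the Dpys signal nearest to ES, 102.1 on the HB9-labelled array, was under the detection level, so no place is given for it. No member was set apart on any other array.

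Several measured properties moved with the difference between the ES array and the HB9-labelled array. The fibroblast markers were higher on the latter, as given above. Markers of endoderm and liver, tissues in which Aass and Dpys are known to be abundant, were detected for 7 of 14 genes on the ES array (summed signal 3147) and for 2 of 14 on the HB9-labelled array (1211). Their part in the result was not tested. Of the list, Sox17 was at 444.5 on ES and 132.2 on the HB9-labelled array, Cubn at 294.2 and 66.3, and Dab2 at 947.7 and 232.6, and Hnf4a was detected on ES and not on the HB9-labelled array (67.3), while the defining liver gene Alb was undetected on all 4 arrays and Apoa1 likewise. On the Sox1 array 7 of the 14 were also detected (summed signal 4390.5), with Dpys undetected there and Aass at 110.

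The 6 pairwise comparisons share arrays and are given side by side. ES against Sox1 had 2 of the 5 members higher (Aass and Dpys) and 0 lower, where 11.4% of the 10532 genes detected on either array were called (5.21% higher, 6.2% lower). ES against granule had 3 higher (Gldc, Aass and Dpys) and 0 lower, against a background of 19.6% (8.27% higher). The HB9-labelled array against ES had 0 higher and 2 lower (Aass and Dpys), against 3.46% (1.46% lower). These comparisons hold the contrast that led to the choice of Aass, so nothing is read from the counts. Against Sox1 the HB9-labelled array had 0 of 5 called (background 12.5%, 5.58% higher and 6.89% lower), against granule it had 1 higher, Gldc (background 21.6%, 9.21% higher), and Sox1 against granule had 0 called (background 10%, 3.65% higher and 6.39% lower). In the first 3 of these comparisons, where all 5 members were detected on at least 1 of the arrays, their median log2 difference was 0.56, 2.40 and 0.07, against 0.02, 0.09 and 0.04 over all genes detected. Each of these member medians is the value of a single gene, Gldc for 0.56 and 2.40 and Gcsh for 0.07. Nothing is read from them either.

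The calls for Gldc depend on how arrays are scaled to each other. Centred on the median of 7 reference genes, the ES array exceeded the granule array by 1.83 log2 units and the HB9-labelled array exceeded it by 1.59, both short of a call. That centring moved the median of all detected genes to -0.54 and -0.94 in these comparisons, so relative to it Gldc was at 2.37 and 2.53. Aass and Dpys were called in the same comparisons under it. Over all genes the split of calls moved as well: ES against granule had 907 higher and 1243 lower, and 613 and 1993 with reference genes. ES against Sox1 had 549 and 653, then 766 and 486, and the HB9-labelled array against ES had 202 and 148, then 114 and 305 (230 and 109 with quantile normalization). the HB9-labelled array against granule had 1006 and 1348, then 457 and 2642, and Sox1 against granule 380 and 665, then 170 and 1547.

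**Figure D2:**
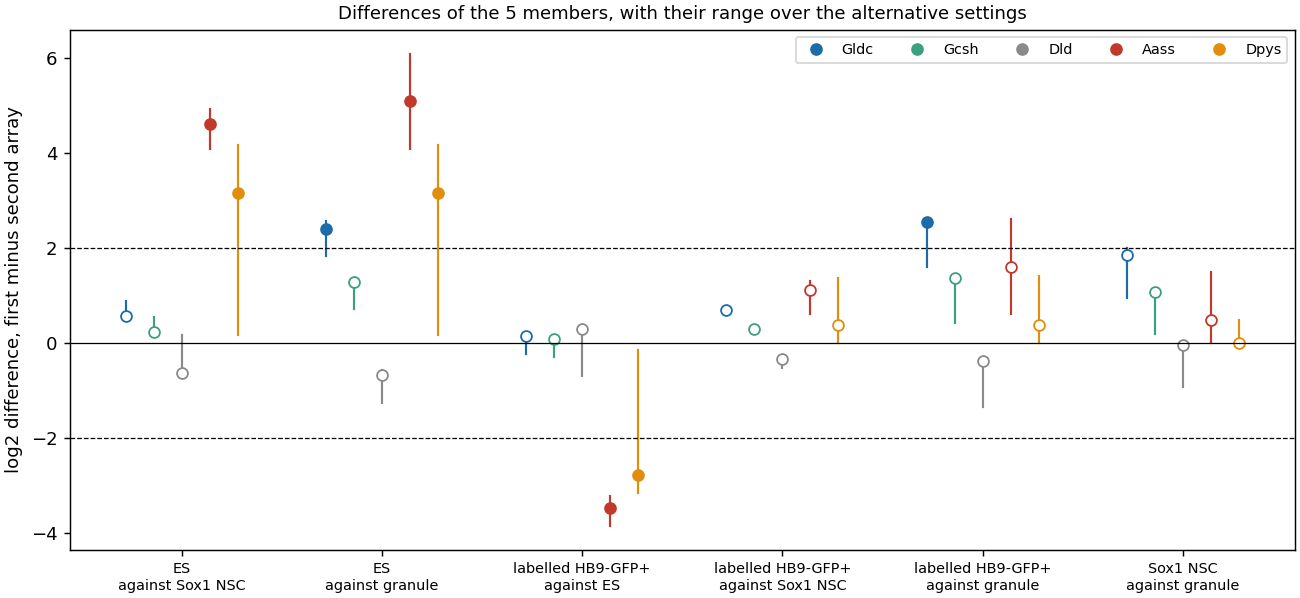
Log2 difference of each of the 5 members in the 6 comparisons, first array minus second; filled points were called (detected and past the dashed lines at 2 log2 units), open ones were not, and vertical lines span the values over the alternative settings. Aass stays past 2 log2 units in all comparisons of ES with another array, while the Dpys range reaches to 0.16 with the mean over its probe sets.

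The genes with the profile most like each member were found by the Euclidean distance between log2 profiles over the 4 arrays, each centred on its own mean, among 11570 other detected genes. The profile of Gldc was shared closely by Plekhf1 (distance 0.13), the nucleoporin gene Nup43 (0.15) and the kinase gene Cdk7 (0.16), and 703 genes lay within 1 log2 unit. Gcsh was nearest to Adnp2, Nxt1 and Ubap2 (0.05 to 0.09), with 3068 genes within 1 unit, and Dld to Tusc3, Zfp592 and Cant1 (0.05 to 0.07), with 3658. Aass had 5 genes within 1 unit, a count that is not a result, since Aass was chosen for leading the ES array. Its nearest were E330020D12Rik (0.87), the germ cell gene Tex15 (0.88), at 1378.5 on the ES array and 273.4 on the HB9-labelled array, and Irak3 (0.90). Dpys had 61 genes within 1 unit and was nearest to the fructose bisphosphatase gene Fbp2 (0.20), Panct2 (0.22) and Tcf24 (0.41). Between members, the smallest distance was that of Gldc and Gcsh (0.94) and the next that of Aass and Dpys (1.46).

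Lists of 10 neighbouring pathways held 108 measured genes beside the members. In ES against granule, 20 were higher and 13 lower, 34.7% of the 95 detected, beside the 19.6% over all genes. In ES against Sox1, 10 were higher and 7 lower (19.1% of 89, beside 11.4%). In the HB9-labelled array against ES, 2 were higher and 0 lower (2.27% of 88, beside 3.46%). With reference gene centring ES against granule had 15 higher and 15 lower. These lists were chosen with earlier results of these data known, so nothing is read from the shares.

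The lysine and tryptophan pathway beyond Aass had 16 measured genes. In ES against granule 5 were higher and 1 lower, and in ES against Sox1 2 were higher and 0 lower, with medians over its detected genes of 1.49 and 0.76 log2 units beside 0.09 and 0.02 over all, where 8.27% of genes were higher and 11.3% lower against granule, and 5.21% and 6.2% against Sox1. Dhtkd1, which acts on the 2-oxoadipate that lysine yields, was at 1651.4 on the ES array, 1152.7 on the HB9-labelled array, 909.1 on the Sox1 array and 124.1 on granule. Pipox, the pipecolate oxidase of the other route of lysine breakdown, was at 902.8, 785.3, 221.3 and 46.1, and Kyat3, a kynurenine aminotransferase, at 1681.6, 1420.9, 257.8 and 219.4. Hykk, the hydroxylysine kinase, and Hadh, a 3-hydroxyacyl-CoA dehydrogenase, were also higher on ES than on granule (at least 4.71-fold and 4.06-fold), Hadh losing its call with quantile normalization and with reference gene centring, and both with the mean over probe sets. Acat1, the mitochondrial thiolase, was lower, at 1833.5 against 7681.1.

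Between the ES array and the HB9-labelled array, 0 of these 16 genes were called, beside a share of 3.46% over all genes, so the count is near the background. With the low level 1 log2 unit lower 1 was called lower on the HB9-labelled array. Aldh7a1, the enzyme next after Aass, was at 1658.1 on the ES array and 2007.1 on the HB9-labelled array, and Gcdh, glutaryl-CoA dehydrogenase, was at 990.8 and 784.9. Aadat, the aminoadipate aminotransferase, was detected on the ES array at 194, and stood at 29.8, 79.8 and 9.8 on the HB9-GFP+, Sox1 and granule arrays without reaching a call.

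Of the 8 other genes measured in the pyrimidine pathway, 5 were detected on the ES or the granule array, but not those that act directly before and after Dpys on the ES array. Dpyd, which makes the substrate of Dpys, was at 29.5 on the ES array, 12.1 on the HB9-labelled array, 105.6 on the Sox1 array and 173.5 on granule. Upb1, which acts next after Dpys, was at 86.9, 66.7, 7.2 and 20.8. Aldh6a1, which acts late in thymine and valine breakdown, was detected on all 4 arrays, between 760.6 and 1783.7, and the cytidine deaminase Cda on the ES array alone, at 272.1. Of the 8 genes, 1 was higher on ES than on Sox1 and granule, the uridine phosphorylase Upp1, at 6552.3 on the ES array, 9380 on the HB9-labelled array, 384.4 on Sox1 and 120.7 on granule. Over all genes 5.21% were higher against Sox1 and 8.27% against granule. In ES against granule 1 of the 8 was lower, beside 11.3% over all genes. It was the GABA transaminase Abat, at 192.7 against 2143.7, a call lost with the mean over probe sets.

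The 5 dihydropyrimidinase-like genes, relatives of Dpys that encode cytoskeletal proteins of growing axons, were lower on ES than on both Sox1 and granule, as they were on the HB9-labelled array. Over all genes, 6.2% were lower on ES than on Sox1 and 11.3% than on granule. For the HB9-labelled array these shares were 6.89% and 12.3%. Dpysl2 was at 1231 on the ES array, 2561.5 on the HB9-labelled array, 16084.5 on the Sox1 array and 18531.2 on granule. Crmp1 was at 108.3, 191, 1010.7 and 4993, and Dpysl3 at 565.1, 484.8, 3331.6 and 6965.5. Dpysl4 (204.3, 74.3, 1064.9 and 1520.6) and Dpysl5 (64.8, 73.3, 396.4 and 398) completed the list, whose median difference was -2.56 against Sox1 and -3.62 against granule. With the mean over probe sets the calls for Dpysl4 and Dpysl5, and that for Dpysl2 on ES against Sox1, were lost. The other probe sets of these 3 genes were undetected on every array. For the HB9-labelled array that mean also lost the calls for Dpysl2 against both neural arrays and for Dpysl3 against Sox1. A further Dpysl3 probe set was higher on the HB9-labelled array than on Sox1 (451.7 against 379.2). The remaining ones were lower (202.4 against 310, and 484.8 against 3331.6). The Dpysl4 call was also lost without probe sets of suffix s and x, and those for Dpysl5 with a low level 1 log2 unit higher or a pseudocount of 50. With quantile normalization the Dpysl5 call of the HB9-labelled array against granule was lost. In the comparisons of ES with the neural arrays all 5 kept their direction with quantile normalization and with reference gene centring. The family thus ran opposite to Dpys in those comparisons.

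**Figure D3:**
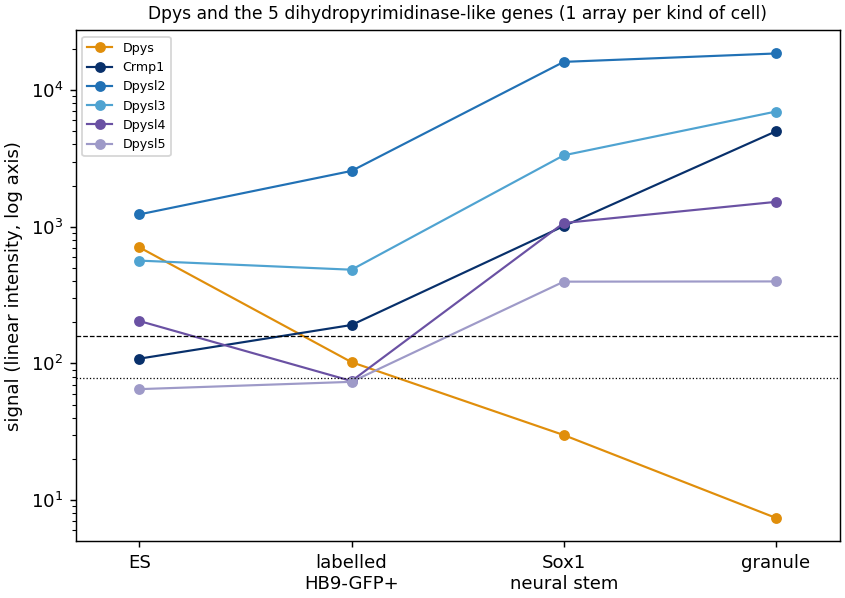
Signal (linear intensity on a log axis) of Dpys and of the 5 dihydropyrimidinase-like genes on the 4 arrays, 1 array per kind of cell; lines join the values of 1 gene, and the dashed and dotted horizontal lines are the detection level of 157.5 and the low level of 78.8. Dpys goes from 707 on the ES array to 7.4 on the granule array, and the 5 relatives are highest on the granule array.

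The list of folate one-carbon genes, which held other folate enzymes and carriers beside those that take up the carbon released from glycine, had 16 measured genes. In ES against granule 4 were higher and 3 lower, and in ES against Sox1 1 was higher and 1 lower, with medians over detected genes of 1.08 and 0.84, beside the same shares and medians over all genes as above. With reference gene centring 2 were higher and 3 lower in ES against granule. The higher genes against granule were Shmt1, which interconverts serine and glycine in the cytosol (4656 against 654.5), Mthfd1, which interconverts folate forms in the cytosol (12155.7 against 1953.7), the mitochondrial Mthfd1l (3116.8 against 616.1) and the folate carrier Slc25a32 (1012.2 against 205.9). The calls for Mthfd1l and Slc25a32 were lost with reference gene centring. Mthfd2l, a mitochondrial dehydrogenase, was 10.1-fold lower on ES than on Sox1 and 10.6-fold lower than on granule, and its 4 probe sets had the same sign in both. Aldh1l1, the formyl-folate dehydrogenase that marks astrocytes, was at 385.4 on ES, 54.2 on Sox1 and 1670.5 on granule, and Aldh1l2 was 4.09-fold lower on ES than on granule. The calls for Aldh1l1 were lost with the mean over its probe sets, and that for Aldh1l2 with quantile normalization.

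Other sources of glycine and serine were measured too. The serine synthesis genes Phgdh, Psat1 and Psph had no call in either comparison of ES. Phgdh, the first enzyme, was at 4219.8 on the ES array, 5904.1 on the HB9-labelled array, 5667.4 on the Sox1 array and 4715.6 on granule. Psph was at 2643, 2934.5, 830.8 and 679.7, so ES over granule (1.96 log2 units) fell just short of a call. With quantile normalization 1 of the 3 was called higher in ES against granule. Of the 3 measured genes for degradation of threonine and serine, Srr, the serine racemase of neurons and glia, was lower on ES than on granule (114.1 against 886.5), a call lost with the mean over probe sets, and another of its 6 probe sets ran the opposite way (181.6 against 86.1). The threonine aldolase gene Tha1 was undetected on all 4 arrays, between 42.4 and 83.7.

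Among 18 transport genes, 17 were detected on ES or granule, and 2 were higher on ES than on granule, beside 8.27% over all genes. None of the 14 detected on ES or Sox1 was higher on ES than on Sox1, beside 5.21%. These counts are near the background. Slc38a4, an amino acid carrier, was at 7022.3 on the ES array, 5815.7 on the HB9-labelled array, 3786.7 on the Sox1 array and 44.4 on granule, and Slc7a3, a carrier of lysine and arginine, was at 2423.5, 5832.2, 1033.9 and 104.4. The glycine carrier of mitochondria, Slc25a38, was at 160.8, 213.3, 156.5 and 218.6, without a call. Against Sox1, the HB9-labelled array had 4 higher of 14 detected, beside 5.58% higher over all genes. They were Slc7a3, Slc7a5 (6216.3 against 762.8), its partner Slc3a2 (5078.9 against 957.8) and Slc1a5 (722.6 against 154.3), the last call being lost with the mean over probe sets.

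The complexes that share Dld had 16 other measured genes. On ES 2 were higher than on granule, beside 8.27% over all genes, and 3 were higher than on Sox1, beside 5.21%. They were Pdk1, an inhibitory kinase of pyruvate dehydrogenase, at 9419.4 on the ES array, 7268.5 on the HB9-labelled array, 1998.7 on Sox1 and 347.4 on granule, Pdk4, at 731.6, 580.9, 43.4 and 105.3, and, against Sox1 alone, the branched-chain subunit Dbt, at 1134.1 against 262.2. Of the 10 genes of lipoate attachment, which Gcsh needs, 1 was higher on ES than on granule, beside 8.27% over all genes. It was Lipt1, a lipoyl transferase (505.8 against 56.6). In each of ES against granule and ES against Sox1 1 gene was lower, beside 11.3% and 6.2% over all genes. Bola3, a factor of iron-sulfur cluster transfer, was lower on ES than on both, and with the kinase gene Bckdk it was also one of the 2 pathway genes higher on the HB9-labelled array than on ES (2924.7 against 255.5 and 612.6 against 135.1). The Bola3 calls were lost with the mean over its 3 probe sets, that for Lipt1 with the mean over probe sets, and that for Bckdk with reference gene centring.

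Genes of the methionine cycle, where Gnmt uses glycine as methyl acceptor, had 5 of 13 higher and 1 lower in ES against granule, and 3 higher and 0 lower in ES against Sox1, with medians over detected genes of 1.01 and 0.69, beside 8.27% higher, 11.3% lower and a median of 0.09 over all genes against granule, and 5.21%, 6.2% and 0.02 against Sox1. With reference gene centring 3 were higher and 1 lower in ES against granule, and the median over the 13 measured genes went from 0.68 to 0.11, while that of all detected genes went to -0.54. Cth, which makes cysteine from cystathionine, was at 5875.4 on the ES array, 3999.1 on the HB9-labelled array, 746.3 on Sox1 and 144.6 on granule. Gnmt was at 454.1, 221.8, 2.8 and 2.6, and the betaine methyltransferase Bhmt at 492.5, 138.7, 28.5 and 60.1, so like Dpys they were detected on the ES array and undetected on the neural ones. The calls for both were lost with the low level 1 log2 unit higher. Mtrr (5.86-fold) and Ahcy (5.09-fold) were higher on ES than on granule, both calls being lost with reference gene centring, and the creatine enzyme Gamt was lower, at 21.1 against 720.1.

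**Figure D4:**
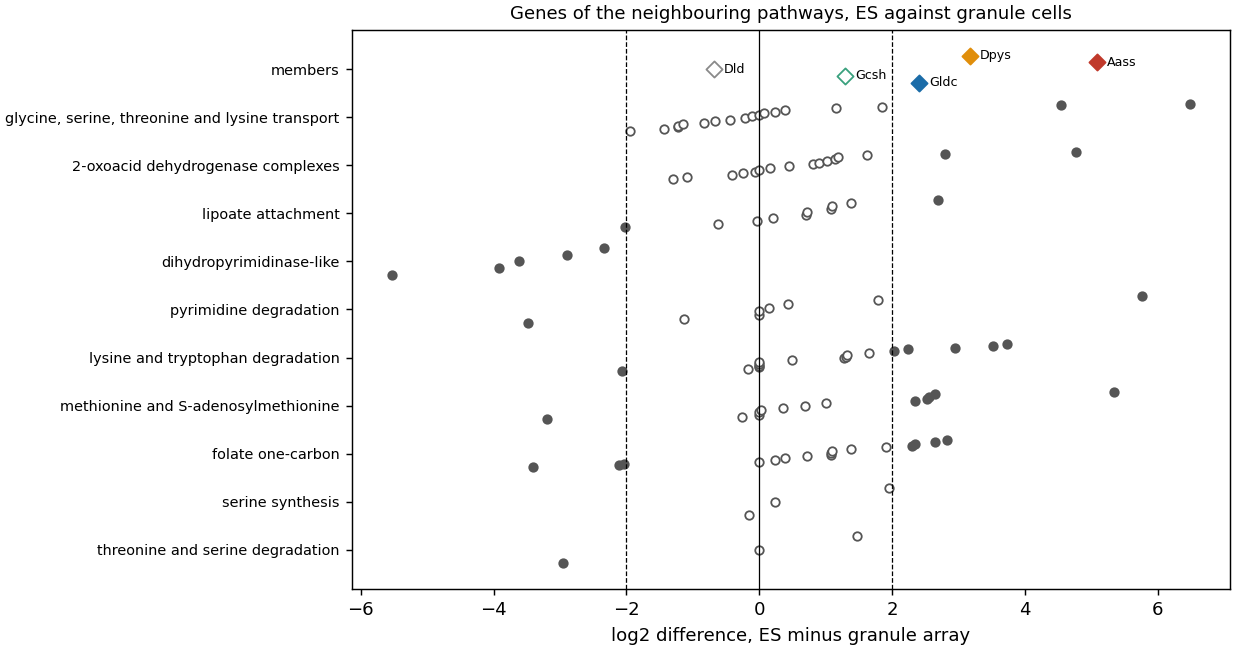
Log2 difference, ES minus granule array, of each measured gene of the 10 pathway lists (circles) and of the 5 members (diamonds); filled symbols were called, past the dashed lines at 2 log2 units, and open ones were not. The dihydropyrimidinase-like genes lie at -2.34 or lower, and Aass, Dpys and Gldc lie above 2.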

How the data were processed

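The members and gene lists were chosen with earlier results of these data known. The authors deposited linear intensities for 45101 probe sets. GCRMA is named, without a version, in the submitters' processing notes, but the deposited values have the same trimmed mean on each array, so the step that made them is uncertain. Gene names came from the platform annotation (34945 probe sets with 1 symbol, controls apart, and 932 with several, left out). Where a gene had several probe sets, the one brightest on average over the arrays in log2 stood for it. The median log2 signals of the 4 arrays were averaged to give the low level. Counts of 4-fold differences and distances were computed with Python 3.11.15, numpy 2.4.6 and pandas 2.3.3. The code of the call rule was run on simulated signals with little noise, where bright genes changed by more than the cut. That run says nothing of genes near the low level or of the error of these arrays. The lists hold only named genes found in the annotation. Named were all members, their 3 nearest genes by profile, and up to 4 called list genes per direction, largest first, in ES against Sox1 or granule; other list genes named, with the comparison they add, were chosen after their values were seen. Promoters are from RefSeq. Alternatives covered scaling, the low level, a pseudocount of 50, the size called and the gene summary. The number of arrays limits the precision.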

Additional observations from a re-analysis of the deposited data

How the results depend on the processing

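Counts of members called were recomputed under 10 alternatives, of which 1, the low level without the HB9-labelled array, was chosen after seeing the data and changed no count. With the mean over probe sets the count was 1 in ES against Sox1 and 1 in HB9-GFP+ against ES, since the dark probe sets of Dpys lower its value. With calls at 3 log2 units HB9-GFP+ against ES had 1 and HB9-GFP+ against granule 0. With calls at 1 log2 unit HB9-GFP+ against Sox1 had 1, HB9-GFP+ against granule 3 and Sox1 against granule 2. HB9-GFP+ against granule had 0 with reference gene centring, and 2 with the low level 1 log2 unit lower and 2 with a pseudocount of 50, where Aass joined Gldc. All other counts stayed within 1.5 times, and no called difference of a member changed sign under these alternatives. Quantile normalization and leaving out probe sets of suffix s and x changed no count of members. No paired analysis was possible because each kind of cell has 1 array. Signals under the low level set the bounds for Aass and Dpys, which moved with it: ES over granule was 4.09 to 6.09 log2 units for Aass.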

Other observations

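The 45 genes set apart on the ES array held other metabolic genes beside Aass and Dpys. Fbp2, a fructose bisphosphatase, was at 792.6 on the ES array, 119.6 on the HB9-labelled array, 10.8 on Sox1 and 6.3 on granule. Slc27a2, which activates very long fatty acids, was at 919.6, 46.4, 152 and 8.9, and the retinol-binding protein gene Rbp7 at 495, 75.4, 12.7 and 28. The desmosomal cadherin gene Dsc2 was at 676.2, 107.2, 115.4 and 51.4. These genes were chosen after their values were seen, from the 10 with the largest smallest difference.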
